A study of Mus musculus with 24 samples.

Results

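The genes described here are 10 genes through which macrophages act on neighbouring cells and on the extracellular matrix. They were taken as a list of symbols, 6 growth factor genes (*Igf1*, *Tgfb1*, *Pdgfa*, *Pdgfb*, *Pdgfc* and *Hbegf*) and 4 genes of matrix and matrix remodelling (*Fn1*, *Tgm2*, *Mmp12* and *Mmp14*), and all 10 were found by gene identifier among the 56884 genes of the count table. The study profiled RNA of bone marrow-derived macrophages (BMDM), cells differentiated from marrow progenitors in the presence of M-CSF, and asked how IL-4 and IL-13 change macrophages and how inhibitors that stress cells alter that change. The BMDM came from wild-type C57BL/6J female mice of 9 weeks, numbered 1, 2, 4 and 5, and each of the 6 conditions was sampled once from each mouse, giving 24 libraries. Naive BMDM received no cytokine. IL-4/IL-13 BMDM received 20 ng/ml of each cytokine for 24 h. The other 16 libraries received the same cytokines after 1 h of pretreatment with an inhibitor. Tunicamycin (5 µg/ml) blocks N-linked glycosylation in the endoplasmic reticulum. Sal003 (10 µM), a derivative of salubrinal, blocks dephosphorylation of the translation factor eIF2α. Oligomycin (1 µM) blocks the mitochondrial ATP synthase and was used in 2 sets of 4 libraries, one of which also received ISRIB (1 µM), a compound that relieves the effect of phosphorylated eIF2α on translation. The labels disagree on which set that was. In oligomycin set A the titles name ISRIB and the library names do not, and in oligomycin set B the reverse holds. The sets are therefore reported under these neutral names, without a choice between the readings from their expression values. M-CSF culture was common to all conditions, and the vehicle of the IL-4/IL-13 libraries is not given in the sources used here.

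IL-4 and IL-13 bind receptors that share the IL-4 receptor alpha chain and act through the transcription factor STAT6, and macrophages exposed to them are associated with tissue repair and fibrosis. Growth factors such as IGF-1, TGF-β1, the PDGF chains and HB-EGF act on fibroblasts, smooth muscle and epithelium, and several of them are made as precursors that must be cut before they can signal. Fibronectin is a scaffold protein of provisional matrix, transglutaminase 2 crosslinks matrix proteins, and matrix metalloproteinases cut them. Stress in the endoplasmic reticulum or mitochondria can lead to phosphorylation of eIF2α, which lowers general translation, a programme known as the integrated stress response.

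The libraries held 16238727 to 26725278 reads assigned to genes, with a median of 18999998. Values are given as CPM, counts scaled to library size with the TMM factors, always in the order of mice 1, 2, 4 and 5, and as mean ± SD over the 4 libraries of a condition. Changes were tested with edgeR's quasi-likelihood test across 13679 genes, and a gene counts as called where its *P*, adjusted by the Benjamini-Hochberg method, was under 0.05. All 8 macrophage markers were detected in every condition, with a summed level of 31100 to 36900 CPM in naive BMDM, 11400 to 13800 CPM with IL-4/IL-13 and 8780 to 18100 CPM with the inhibitors. The largest member, *Lyz2*, was 23600 CPM in naive BMDM and 5980 CPM with IL-4/IL-13, where *Cd68* was 1200 and 1230 CPM. From IL-4/IL-13 to tunicamycin *Adgre1* went from 977 to 6680 CPM and *Csf1r* from 3730 to 821 CPM, so the members did not move together. The summed level of 9 neutrophil and precursor markers was 41.3 to 78.1 CPM in naive BMDM, 25.6 to 45.6 CPM with IL-4/IL-13, 19.4 to 25.3 CPM in oligomycin set B, 5.5 to 8.95 CPM with Sal003, 3.1 to 5.34 CPM in set A and 0.952 to 1.18 CPM with tunicamycin, and that of 6 dendritic cell markers was at most 12.5 CPM in any library. Markers of T and B cells (5 genes) summed to at most 1.23 CPM. The 4 endothelial markers summed to 46.3 to 66.5 CPM in naive BMDM and 217 to 274 CPM with IL-4/IL-13. In these conditions *Vwf* was 35.9 and 206 CPM on average and *Pecam1* 10.8 and 31.9 CPM. *Kdr* went the other way, from a mean of 9.82 to 1.02 CPM. The defining marker *Cdh5* was at most 0.751 CPM in any library. Among the inhibitor conditions the endothelial sum was lowest under tunicamycin (54 to 70.4 CPM) and highest for oligomycin set A (367 to 429 CPM). The part of these lists in the results for the 10 genes was not tested, and in bulk samples fewer cells of a type and less RNA per cell cannot be told apart.

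IL-4/IL-13 raised *Fn1*, *Mmp12*, *Igf1*, *Pdgfa*, *Hbegf* and *Tgm2*, lowered *Mmp14* and *Pdgfc*, and left *Tgfb1* and *Pdgfb* without a called change. Thus 8 of the 10 genes were called, against 60.5% of all genes tested. At 2.5-fold or more, *Fn1* and *Mmp12* were higher and *Mmp14* was lower, where 5.39% of all genes were called and that much higher and 6.08% that much lower. The median log2 change was 0.72 over the 10 genes and -0.02 over all genes tested.

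Tunicamycin lowered 9 of the 10 genes relative to IL-4/IL-13 and raised *Mmp14*. All 10 were called, where 76.3% of all genes were. By 2.5-fold or more, 7 of them (*Mmp12*, *Fn1*, *Pdgfb*, *Pdgfc*, *Tgm2*, *Hbegf* and *Pdgfa*) were lower and 0 were higher, against 14% and 8.56% of all genes. The median log2 change was -3.03 over the 10 genes and 0.01 over all genes. Tunicamycin was also compared with naive BMDM, and there 9 genes were called, all of them lower, against 77.6% of all genes called in either direction.

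Sal003 lowered *Fn1*, *Mmp12*, *Pdgfb*, *Hbegf* and *Pdgfa* and raised *Pdgfc*, *Mmp14* and *Tgm2* relative to IL-4/IL-13. These 8 calls of 10 stand beside 50.6% of all genes. *Fn1*, *Mmp12* and *Pdgfb* were lower by 2.5-fold or more (5.04% of all genes), and *Pdgfc* was higher by that much (2.68%). Against naive BMDM, 7 genes were called with Sal003, beside 62.5% of all genes.

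Oligomycin set A had 9 called genes of 10 relative to IL-4/IL-13 (66.2% of all genes), 3 higher (*Pdgfc*, *Tgm2* and *Mmp14*) and 6 lower. Of these, *Fn1*, *Mmp12* and *Pdgfb* were lower by 2.5-fold or more (7.96% of all genes) and 0 were higher by that much (4.79%). Oligomycin set B had 8 called genes (54.3% of all genes), again with *Pdgfc*, *Tgm2* and *Mmp14* higher. Of the 5 that were lower, *Fn1* and *Mmp12* were lower by 2.5-fold or more (5.02% of all genes), and 0 genes were higher by that much (2.94%). Against naive BMDM, set A had 8 called genes beside 71% of all genes, and set B had 9 beside 63.8%. The set B count includes *Hbegf* at an adjusted *P* of 0.048 (edgeR), a call lost under 6 alternatives, with adjusted *P* from 0.084 to 0.26. The 4 comparisons of an inhibitor with IL-4/IL-13 share the same 4 control libraries, so their values stand side by side and are not separate evidence of one another.

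**Figure D1:**
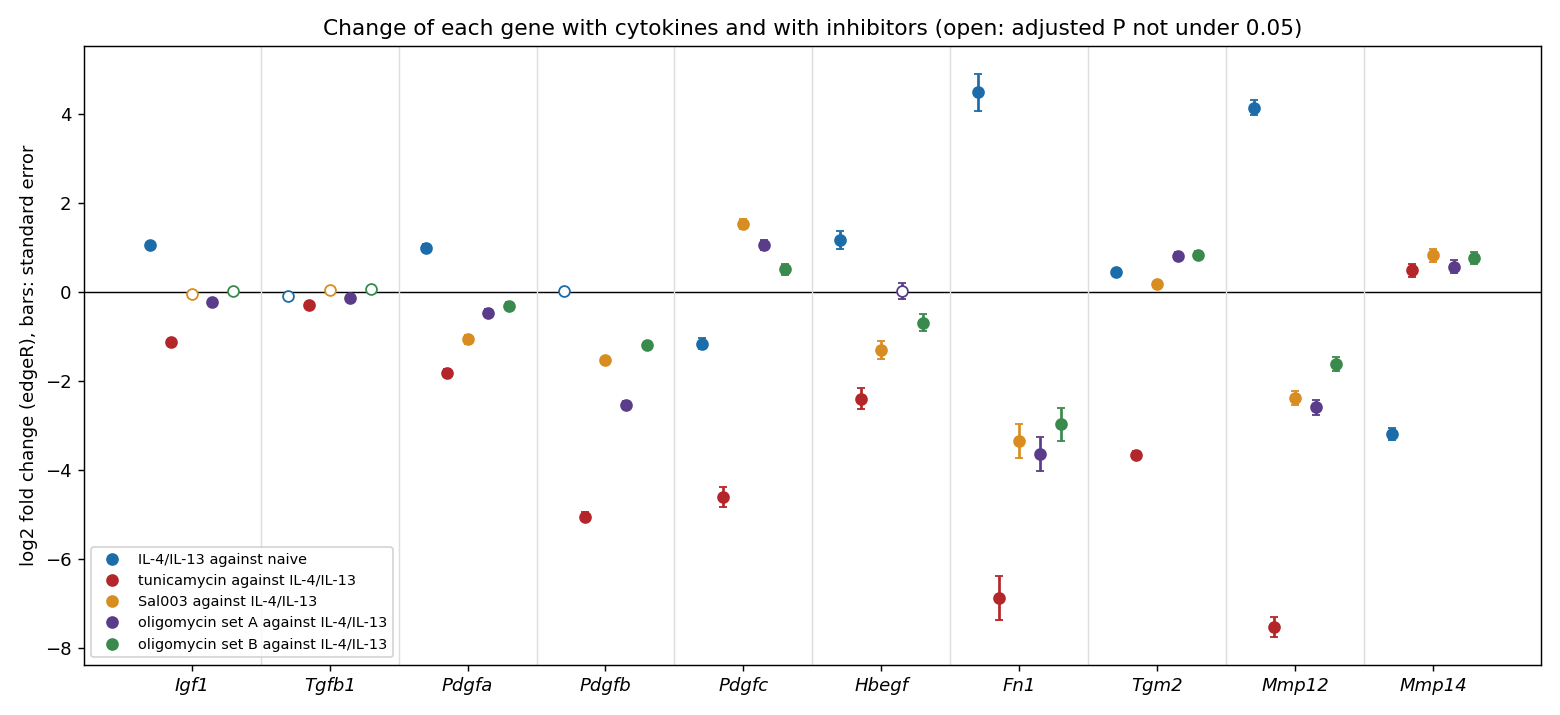
Log2 fold change of each of the 10 genes (horizontal axis) with IL-4/IL-13 against naive BMDM and with each inhibitor against IL-4/IL-13 (colours), with bars for 1 SE; filled points are called at an adjusted *P* under 0.05 and open points are not. *Mmp12* and *Fn1* hold the largest rises with IL-4/IL-13, 4.15 and 4.49, and the largest falls with tunicamycin.

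On a per-length scale (TPM, computed here from the counts and exon lengths), the level among the 10 genes in IL-4/IL-13 BMDM was highest for *Igf1* (826 TPM) and *Mmp12* (820 TPM), followed by *Tgfb1* (437 TPM), *Tgm2* (287 TPM), *Fn1* (156 TPM) and *Pdgfb* (138 TPM). *Pdgfa* (15.6 TPM), *Mmp14* (3.66 TPM), *Pdgfc* (3.33 TPM) and *Hbegf* (2.39 TPM) were far lower. The list thus holds abundant transcripts and some with low counts, the fewest in IL-4/IL-13 BMDM being 47 to 51 counts of *Hbegf* in a library.

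**Figure D2:**
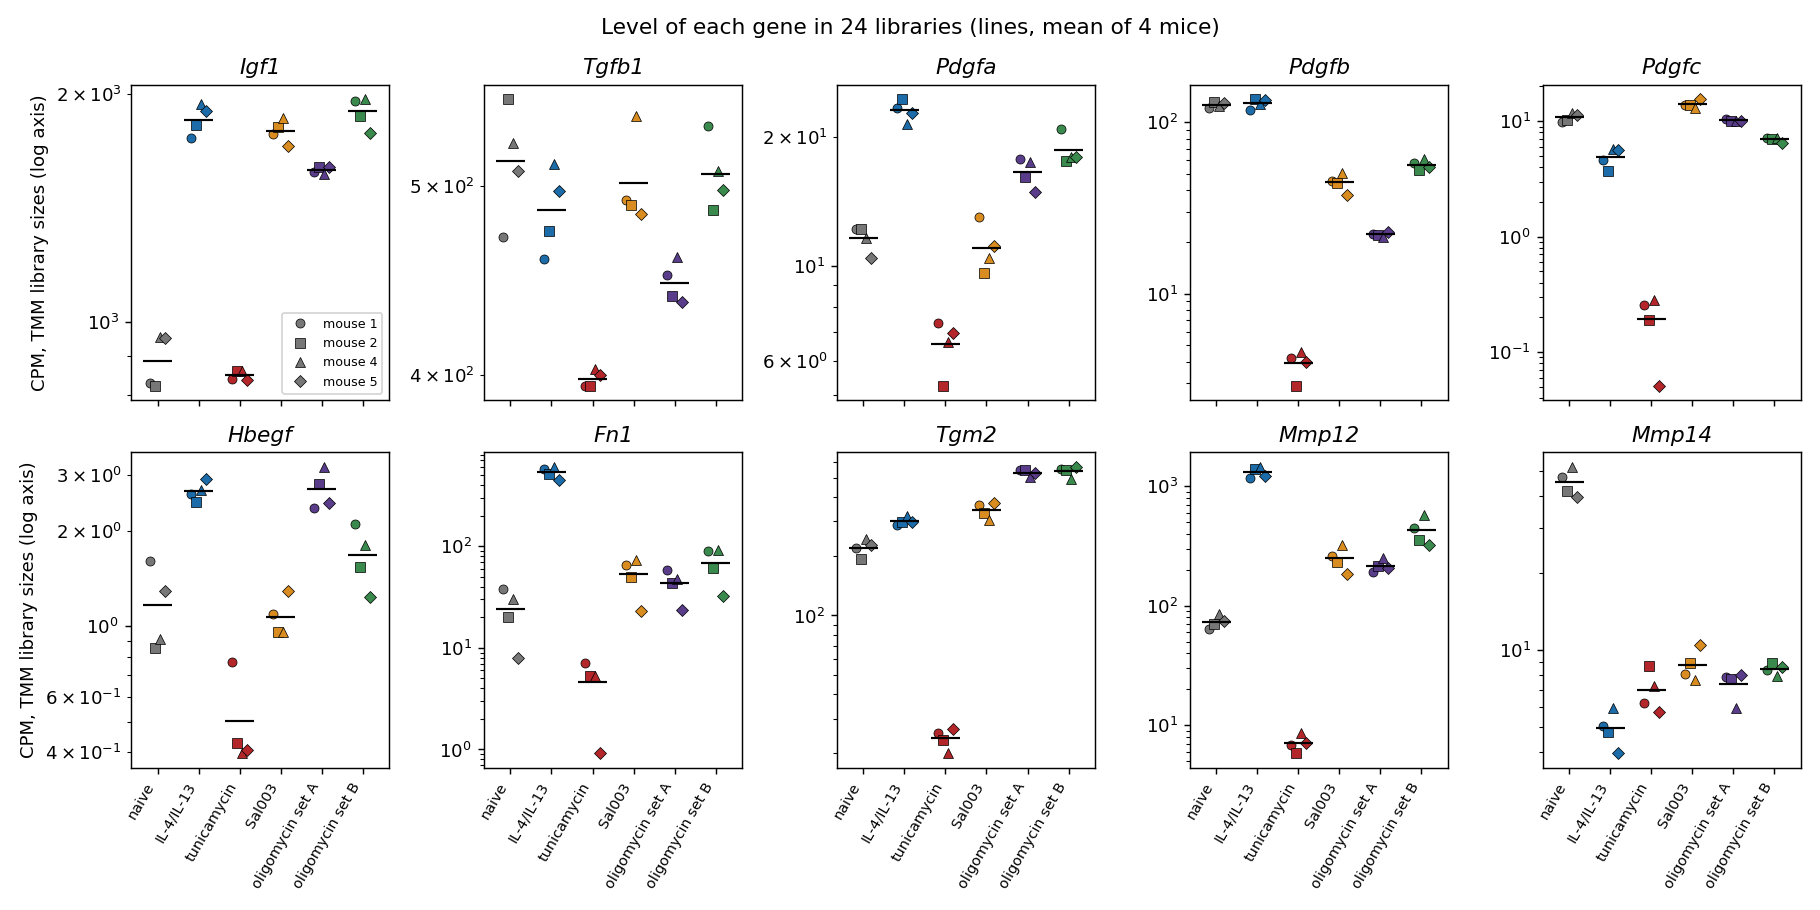
Level of each of the 10 genes in CPM on a log10 axis in the 6 conditions, with a point for each mouse and a line at the mean of the 4 libraries of a condition. *Tgm2* falls to 23.9 CPM with tunicamycin and is above its naive level in the other 4 cytokine-treated conditions, while *Mmp14* is high in naive BMDM and low in the other 5 conditions.

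*Igf1* (ENSMUSG00000020053, GRCm39 chromosome 10, 87693642 to 87772904) encodes insulin-like growth factor 1, which promotes growth and survival of muscle, epithelium and other cells. Its level was 828, 822, 954 and 950 CPM in naive BMDM and 1750, 1820, 1940 and 1900 CPM with IL-4/IL-13, so all 4 treated libraries lay above all naive ones. The log2 change was 1.06 (SE 0.0505, 2.08-fold, adjusted *P* = 2.7e-15, edgeR). With tunicamycin the 4 libraries were 839, 860, 860 and 837 CPM, below every IL-4/IL-13 library, and *Igf1* fell by 1.12 on the log2 scale (adjusted *P* = 2.3e-16, edgeR). This tunicamycin level was close to the naive one, with a log2 difference of -0.07 and an interval of -0.169 to 0.0377 (95%, here and for every interval given). That difference was called with upper-quartile scaling (log2 difference -0.13, adjusted *P* = 0.012, edgeR) and with a strict filter of at least 10 counts in every library (-0.12, adjusted *P* = 0.035), and without a filter or without mouse 5 it was 0.01 and 0.02 without a call. Sal003 (1790 ± 61.9 CPM) and oligomycin set B (1900 ± 91 CPM) gave no called change from IL-4/IL-13 (1850 ± 82.5 CPM), with intervals of -0.152 to 0.054 and -0.0679 to 0.138 on the log2 scale. Oligomycin set A was slightly lower at 1580, 1600, 1570 and 1600 CPM, a log2 change of -0.22 (adjusted *P* = 0.00041, edgeR). The level of *Igf1* therefore fell into a high range with IL-4/IL-13, Sal003 and set B, a somewhat lower level in set A, and a range near the naive one with tunicamycin.

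*Tgfb1* (ENSMUSG00000002603, chromosome 7, 25386390 to 25404506) encodes transforming growth factor β1, which is secreted in a latent form and drives matrix production by fibroblasts once released. It varied least of the 10 genes, from a mean of 398 ± 3.69 CPM with tunicamycin to 515 ± 34.6 CPM in naive BMDM. With IL-4/IL-13 it stood at 486 ± 23.9 CPM, and the interval of its log2 difference from naive BMDM was -0.186 to 0.0164. Tunicamycin lowered it 1.22-fold (log2 change -0.29, adjusted *P* = 1.1e-05, edgeR), with 395, 395, 403 and 400 CPM below all 4 IL-4/IL-13 libraries. Neither Sal003 (502 ± 27.8 CPM) nor set B (507 ± 21.7 CPM) gave a called change. In set A (446 ± 11.1 CPM) the call was marginal, at a log2 change of -0.12 (adjusted *P* = 0.031, edgeR). That call was lost without mouse 2, 4 or 5 (adjusted *P* = 0.052, 0.097 and 0.18, edgeR) and without a filter on low counts (0.12).

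The PDGF genes encode chains that dimerize and bind the receptors PDGFRα and PDGFRβ on fibroblasts and other mesenchymal cells, and the 3 measured here did not move together. *Pdgfa* (ENSMUSG00000025856, chromosome 5, 138961758 to 138983435) was 12.2, 12.2, 11.6 and 10.4 CPM in naive BMDM and 23.4, 24.5, 21.5 and 22.8 CPM with IL-4/IL-13, a 1.98-fold rise (adjusted *P* = 1.1e-09, edgeR). Every inhibitor lowered it. Tunicamycin brought it to 6.55 ± 0.921 CPM (log2 change -1.82), below the naive level of 11.6 ± 0.836 CPM, and Sal003 to 11 ± 1.43 CPM (log2 change -1.06), overlapping the naive range. In oligomycin sets A and B it stood between, at 16.6 ± 1.35 and 18.6 ± 1.49 CPM, and these sets were not told apart by the test (interval of the log2 difference -0.351 to 0.0193). Of its exon sequence, 37.7% is shared with a transcript on the opposite strand, 6330403L08Rik. Nothing states whether reads were counted by strand, so the effect of this overlap on the count of *Pdgfa* is not known.

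*Pdgfb* (ENSMUSG00000000489, chromosome 15, 79880009 to 79899181), the chain that in many tissues recruits pericytes and fibroblasts, did not follow the cytokines. It was 121, 131, 124 and 130 CPM in naive BMDM and 118, 136, 127 and 134 CPM with IL-4/IL-13, overlapping ranges with an interval of -0.121 to 0.172 for the log2 difference. All 4 inhibitor conditions lowered it, each to a different level. Tunicamycin left 4.21, 2.9, 4.59 and 3.97 CPM, 33-fold below IL-4/IL-13 (log2 change -5.04, SE 0.0985, adjusted *P* = 1.7e-23, edgeR) and 32.4-fold below naive BMDM. Set A followed at 22.4, 22, 21.5 and 22.9 CPM (5.79-fold lower), then Sal003 at 45.6, 44.4, 50.7 and 37.6 CPM (2.89-fold lower) and set B at 57.8, 52.5, 60.7 and 54.8 CPM (2.28-fold lower). The 4 inhibitor conditions did not overlap one another, and each step was called, from tunicamycin to set A (adjusted *P* = 1.2e-16, edgeR) through set A to Sal003 (1.3e-10) and Sal003 to set B (0.0022). *Pdgfb* was the gene of the list that changed on a scale of 2.5-fold or more under 3 inhibitor conditions without having responded to the cytokines.

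*Pdgfc* (ENSMUSG00000028019, chromosome 3, 80943668 to 81121473) encodes a chain secreted with a domain that must be removed before it binds its receptor. It moved opposite to *Pdgfa* with the cytokines, with Sal003 and in the oligomycin sets, but not with tunicamycin. It was 9.86, 10.3, 11.8 and 11.3 CPM in naive BMDM and 4.57, 3.68, 5.69 and 5.58 CPM with IL-4/IL-13, a log2 change of -1.15 (2.23-fold lower, adjusted *P* = 3.3e-09, edgeR) with no overlap. Sal003 raised it to 13.8, 13.8, 13 and 15.5 CPM, 2.89-fold above IL-4/IL-13 and above every naive library. Set A raised it 2.09-fold to 10.2 ± 0.214 CPM and set B 1.43-fold to 6.96 ± 0.314 CPM. With tunicamycin *Pdgfc* fell, as *Pdgfa* did. The tunicamycin libraries held 1 to 5 counts of *Pdgfc* each and 15 in all (0.195 ± 0.104 CPM). The log2 change from IL-4/IL-13 was -4.61 (SE 0.22, 24.4-fold lower, adjusted *P* = 8e-16, edgeR), a value limited by these few counts.

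*Hbegf* (ENSMUSG00000024486, chromosome 18, 36637980 to 36649677) encodes heparin-binding EGF-like growth factor, a membrane-bound ligand of the EGF receptor that is released by shedding. It was low in every condition. Naive libraries were at 1.61, 0.853, 0.912 and 1.29 CPM and IL-4/IL-13 libraries at 2.62, 2.47, 2.69 and 2.91 CPM, a 2.26-fold rise (adjusted *P* = 2.1e-05, edgeR) with no overlap. Sal003 (1.07 ± 0.154 CPM) stood 2.47-fold below IL-4/IL-13 and within the naive range, and tunicamycin (0.501 ± 0.18 CPM, 7 to 15 counts a library) was 5.26-fold lower. Set B (1.68 ± 0.373 CPM) was 1.61-fold lower (adjusted *P* = 0.0045, edgeR), a call lost without mouse 5 (adjusted *P* = 0.059). Set A (2.71 ± 0.38 CPM) did not differ from IL-4/IL-13 by the test, with an interval of -0.36 to 0.4 on the log2 scale.

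*Fn1* (ENSMUSG00000026193, chromosome 1, 71624673 to 71692419) encodes fibronectin, which binds collagen and integrins and forms the first scaffold of healing tissue. Naive libraries held 37.7, 20.1, 30.1 and 8 CPM and IL-4/IL-13 libraries 581, 520, 607 and 451 CPM. The lowest treated library stood far above the highest naive one, and the log2 change was 4.49 (SE 0.412, 22.5-fold, adjusted *P* = 8e-10, edgeR). With tunicamycin the libraries held 7.09, 5.24, 5.28 and 0.917 CPM, below every naive library, 117-fold below IL-4/IL-13 (log2 change -6.87, SE 0.493, adjusted *P* = 3.2e-12, edgeR) and 5.19-fold below naive BMDM. Sal003 libraries were at 65.2, 49.8, 74.1 and 23 CPM (10.2-fold below IL-4/IL-13), set A at 58.5, 43.8, 47.7 and 23.6 CPM (12.4-fold) and set B at 90.2, 61.7, 92.7 and 32.3 CPM (7.85-fold). These 3 conditions lay between naive and IL-4/IL-13 BMDM, and their ranges overlapped one another and the naive range. Relative to naive BMDM the call held in set B (2.86-fold, adjusted *P* = 0.0016, edgeR) and with Sal003 (2.2-fold, adjusted *P* = 0.015), although the latter was lost without mouse 2 or 4 (0.077 and 0.074). Set A stood 1.81-fold above naive BMDM without a call (adjusted *P* = 0.057), and the difference was called with the mouse as a block in the model (adjusted *P* = 0.00019), without mouse 5 (0.0016) and with no filter on low counts (0.0013).

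The spread of *Fn1* followed the mice. Mouse 5 had the lowest *Fn1* in 6 of 6 conditions, on average 1.06 log2 units below the mean of its condition. The summed level of 10 fibroblast and stromal markers was lowest in mouse 5 in the same 6 conditions. It was 201, 125, 125 and 27.5 CPM in naive BMDM, 120, 73.1, 66.7 and 22.1 CPM with IL-4/IL-13, 34.5, 23.5, 28.2 and 8.15 CPM with tunicamycin, 70.4, 41.5, 46 and 11.2 CPM under Sal003, 85.4, 39.5, 43.4 and 9.74 CPM in set A, and 76.7, 40.3, 44.8 and 11.8 CPM in set B. Of the 10 markers 8 were above 3 counts in some library of every condition, and *Lum* and *Thy1* were not in any. Like *Fn1*, the sum was lower with tunicamycin (8.15 to 34.5 CPM) than in naive BMDM (27.5 to 201 CPM). The part of such cells in the spread of *Fn1*, or in its differences between conditions, was not tested. In naive BMDM *Fn1* was 37.7 CPM in mouse 1 and 8 CPM in mouse 5, at sums of 201 and 27.5 CPM. With tunicamycin these mice had 7.09 and 0.917 CPM of *Fn1*, at sums of 34.5 and 8.15 CPM. With IL-4/IL-13 they had 581 and 451 CPM of *Fn1*, at sums of 120 and 22.1 CPM. Without mouse 5 the log2 change of *Fn1* was 4.29 with IL-4/IL-13 and -6.57 with tunicamycin.

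**Figure D3:**
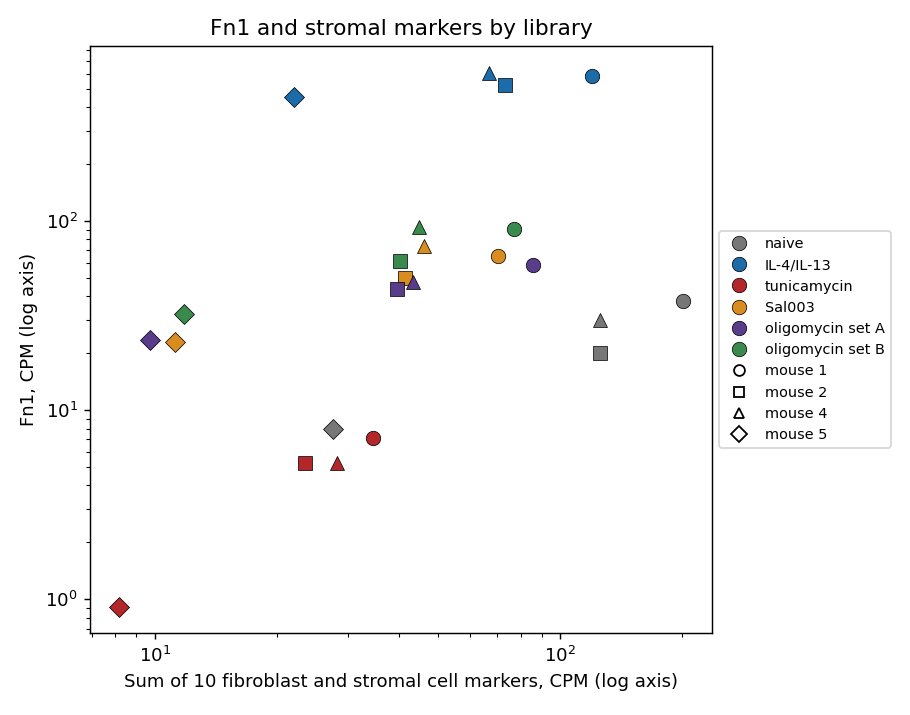
*Fn1* (vertical axis, CPM, log10 scale) against the summed level of 10 fibroblast and stromal markers (horizontal axis, CPM, log10 scale) in each of the 24 libraries, coloured by condition. In every condition the library of mouse 5 is lowest on both axes, and the 4 IL-4/IL-13 libraries stand at 451 CPM or more of *Fn1* over sums of 22.1 to 120 CPM.

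The 250 bases before the start of *Fn1* (GRCm39 chr1:71692420-71692669, minus strand, read 5′ to 3′) are shown because *Fn1* had the largest rise with the cytokines. They hold no match to the STAT6 letters TTCNNNNGAA or to the C/EBP-ATF letters TGATGNAAT on either strand. The capitals mark the letters of a cyclic AMP response element (CRE), TGACGTCA, 75 bases before the start.
*Fn1*: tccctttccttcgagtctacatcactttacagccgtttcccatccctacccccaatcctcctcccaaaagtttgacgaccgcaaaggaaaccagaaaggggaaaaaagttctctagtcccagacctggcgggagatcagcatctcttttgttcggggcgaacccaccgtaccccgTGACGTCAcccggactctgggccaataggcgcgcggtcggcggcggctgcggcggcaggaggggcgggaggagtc
This motif was added to the search after the *Fn1* sequence had been read, so its match is no test. It occurs on either strand in 1.69% of the 21770 windows of the same length before protein-coding genes, the STAT6 letters in 5.89% and the C/EBP-ATF letters in 0.804%, and neither of the latter occurs in any of the 10 windows.

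*Tgm2* (ENSMUSG00000037820, chromosome 2, 157958322 to 157988359) encodes transglutaminase 2, which crosslinks fibronectin and other proteins and is often used as a marker of IL-4-treated macrophages. Its rise with IL-4/IL-13 was small, from 219, 194, 243 and 229 CPM to 287, 297, 321 and 299 CPM (1.36-fold, adjusted *P* = 1.1e-05, edgeR), without overlap. Oligomycin raised it further, to 550, 544, 504 and 527 CPM in set A and 554, 546, 494 and 568 CPM in set B. These were 1.77-fold and 1.8-fold above IL-4/IL-13 and were not told apart from each other (interval of the log2 difference -0.175 to 0.125). Sal003 gave 363, 331, 305 and 370 CPM, which overlapped IL-4/IL-13. Its call was marginal (log2 change 0.19, adjusted *P* = 0.036, edgeR) and was lost with upper-quartile scaling (0.085), with DESeq2 (0.059), with a strict filter (0.06) and without mouse 1, 2 or 5 (0.31, 0.066 and 0.22). Tunicamycin took *Tgm2* down to 25.3, 23.4, 20 and 26.7 CPM, 12.6-fold below IL-4/IL-13 and 9.26-fold below naive BMDM. Thus the inhibitors moved this gene in opposite directions, with tunicamycin on one side and oligomycin on the other. Of the exon sequence of *Tgm2*, 21% also lies in *Rprd1b* and *Gm20412* on the opposite strand. Apart from *Pdgfa*, such overlaps were smaller for the other genes that had one. They were 16.3% for *Hbegf* (Gm41698), 10% for *Pdgfc* (Gm16000), 3.6% for *Mmp14* (Gm62879), 2.7% for *Fn1* (*Apol7d*) and 2.2% for *Mmp12* (*Mmp1b*). Of these overlapping genes, Gm41698 and Gm62879 are not in the count table.

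*Mmp12* (ENSMUSG00000049723, chromosome 9, 7344381 to 7369499) encodes macrophage elastase, a protease that degrades elastin. It was 64.3, 70, 84.9 and 73.8 CPM in naive BMDM and 1160, 1380, 1450 and 1210 CPM with IL-4/IL-13, a 17.7-fold rise (log2 change 4.15, SE 0.173, adjusted *P* = 1.8e-16, edgeR). Tunicamycin left 6.88, 5.81, 8.57 and 7.08 CPM, 184-fold below IL-4/IL-13 (SE of the log2 change 0.214, adjusted *P* = 2e-20, edgeR) and 10.4-fold below naive BMDM, with no overlap with either. The other inhibitors brought it down in part. Sal003 gave 260, 230, 322 and 185 CPM (5.21-fold below IL-4/IL-13), set A 191, 215, 250 and 207 CPM (6.03-fold) and set B 448, 352, 577 and 322 CPM (3.06-fold). All 12 of these libraries remained above the naive ones, by 3.4-fold, 2.94-fold and 5.79-fold on average. Sal003 and set A were not told apart (interval of the log2 difference -0.106 to 0.525), whereas set B was above Sal003 (adjusted *P* = 0.00081, edgeR). *Mmp12* was highest in mouse 4 in 6 of 6 conditions.

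The 250 bases before the start of the canonical transcript of *Mmp12* (GRCm39 chr9:7347124-7347373, plus strand) are shown because this gene fell furthest with tunicamycin. Other annotated transcripts of the gene start further upstream, so this window lies inside the outer limits of the gene given above. The capitals mark a match to the AP-1 letters TGANTCA, here TGAGTCA, 44 bases before the start.
*Mmp12*: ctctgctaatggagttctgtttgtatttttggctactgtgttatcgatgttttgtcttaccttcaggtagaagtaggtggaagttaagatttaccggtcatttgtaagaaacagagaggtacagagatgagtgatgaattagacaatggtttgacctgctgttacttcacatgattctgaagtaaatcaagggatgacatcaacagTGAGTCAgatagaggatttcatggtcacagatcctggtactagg
This motif occurs in 6.17% of all windows of this length and in 1 of the 10 windows of these genes. A match describes the letters only, since no binding was measured here.

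*Mmp14* (ENSMUSG00000000957, chromosome 14, 54668878 to 54682821) encodes a membrane-anchored metalloproteinase that cleaves collagen and activates other proteases, and its change with the cytokines was opposite to that of *Mmp12*. Naive libraries were at 47.3, 41.9, 52 and 39.6 CPM and IL-4/IL-13 libraries at 5.07, 4.79, 5.95 and 3.95 CPM, a log2 change of -3.19 (SE 0.13, 9.1-fold lower, adjusted *P* = 1.1e-16, edgeR). All 4 inhibitor conditions also stayed far below naive BMDM, by 5.14-fold to 6.47-fold. Relative to IL-4/IL-13 they were slightly higher, 1.77-fold with Sal003 (8.05, 8.91, 7.64 and 10.5 CPM), 1.7-fold in set B (8.44 ± 0.426 CPM), 1.49-fold in set A (7.37 ± 0.976 CPM) and 1.41-fold with tunicamycin (6.21, 8.66, 7.26 and 5.71 CPM). The libraries of set A and of tunicamycin overlapped those of IL-4/IL-13, and the tunicamycin call (adjusted *P* = 0.0039, edgeR) was lost without mouse 2 (adjusted *P* = 0.082). *Mmp14* was thus the only gene of the 10 that tunicamycin did not lower relative to IL-4/IL-13.

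The 2 oligomycin sets, which differ in whether ISRIB was added, were compared directly. In set A, relative to set B, *Pdgfb* (-1.34), *Mmp12* (-0.98), *Igf1* (-0.26) and *Tgfb1* (-0.19) were lower and *Hbegf* (0.70) and *Pdgfc* (0.55) were higher on the log2 scale, so 6 of 10 genes were called, where 41.2% of all genes were. *Pdgfb*, 2.54-fold lower (adjusted *P* = 1.4e-12, edgeR), was the only one to reach 2.5-fold, beside 1.48% of all genes that much lower, and 0 were that much higher (1.14%). That fold was under 2.5 without mouse 4 and with upper-quartile scaling. *Pdgfa*, *Tgm2* and *Mmp14* were not called, and the interval for *Mmp14* was -0.469 to 0.0802. *Fn1* was lower in set A in 4 of 4 mice by 0.66 on average without a call (adjusted *P* = 0.17). It was called with the mouse as a block (log2 change -0.64, adjusted *P* = 0.0054), without mouse 5 (adjusted *P* = 0.006) and with no filter on low counts (adjusted *P* = 0.027).

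Across the 24 libraries, log2 CPM of *Fn1* and *Mmp12* had a Pearson correlation of 0.92, *Pdgfa* and *Mmp12* 0.92, and *Pdgfc* and *Tgm2* 0.91, the highest among the 45 pairs of the list, and *Igf1* and *Mmp14* had the lowest at -0.55. These describe 6 conditions of the same 4 mice and are no test. By the same measure, the genes nearest to each member among those with a mean of at least 50 counts were *Bhlhe40* (0.99) for *Igf1*, *Mapk3* (0.94) for *Tgfb1*, *Anxa3* (0.95) for *Pdgfa*, *Gprc5c* (0.996) for *Pdgfb*, *Id3* (0.98) for *Pdgfc*, *Mink1* (0.93) for *Hbegf*, *Dclk1* (0.98) for *Fn1*, *Mettl27* (0.99) for *Tgm2*, *Kcnn4* (0.99) for *Mmp12* and *Ncf1* (0.97) for *Mmp14*. The second nearest were *Ralgds*, *Tmem59*, *Fzd1*, *Trf*, *Gdf3*, *Wee1*, *Aldh1a2*, *Cdk20*, *Spsb4* and *Tifa* in the same order.

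The other genes of these pathways were taken from 6 lists, of which 115 genes were tested. With IL-4/IL-13, 31 rose and 42 fell, so that 63.5% were called beside 60.5% of all genes. By 2.5-fold or more 11 were higher and 18 lower, and the median log2 change was -0.31 where that of all genes tested was -0.02. With tunicamycin 23 rose and 75 fell, 13 and 54 by that much, with a median of -1.15 beside 0.01 over all genes. The 75 that fell were 65.2% of the genes tested in these lists, where 37.6% of all genes fell. Sal003 raised 33 and lowered 28 (median -0.10), 53% of these genes beside 50.6% of all. Set A raised 33 and lowered 35 (median -0.14), 59.1% beside 66.2%, and set B raised 37 and lowered 28 (median -0.04), 56.5% beside 54.3%. Apart from tunicamycin, the shares called were thus close to, or in set A under, those of all genes. Under tunicamycin every list but 1 had more genes lower than higher. In the list of 14 other macrophage growth factors 8 rose and 5 fell (median 0.58).

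In the lists below, the shares of all genes called to read the counts against were 30.1% higher and 30.4% lower with IL-4/IL-13, and 38.7% higher and 37.6% lower with tunicamycin. Folds are given only for the largest rise and fall of a list in each comparison, so a gene may also have changed where none is given. In the TGF-β list, of 22 genes tested, 6 rose and 12 fell with IL-4/IL-13, and 2 rose and 16 fell with tunicamycin. *Lrrc32*, which holds latent TGF-β at the cell surface, stood at 2.13 ± 1.07 CPM in naive BMDM and 58.2 ± 2.92 CPM with IL-4/IL-13 (27.6-fold, adjusted *P* = 3e-14, edgeR). It fell to 0.295 CPM with tunicamycin (2 to 9 counts a library). Its level was 10.4 CPM under Sal003, and sets A and B had 7.2 and 34.9 CPM. *Thbs1*, an activator of latent TGF-β, fell 9.02-fold with IL-4/IL-13. *Smad6*, an inhibitor of signalling in the wider TGF-β family, rose 3.53-fold with Sal003, 5.05-fold in set A and 3.03-fold in set B. Its mean was 8.81 CPM in naive BMDM and 3.7 CPM with IL-4/IL-13, and with tunicamycin it was lower still, at 0.887 CPM. *Smad3*, a signal transducer of TGF-β receptors, was 2.53-fold higher with tunicamycin.

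In the IGF list, of 8 genes tested, 4 rose and 2 fell with IL-4/IL-13, and 3 rose and 5 fell with tunicamycin. *Irs2*, an adaptor of insulin and IGF-1 receptors, rose 3.19-fold with IL-4/IL-13 and fell 9.93-fold with tunicamycin. *Igfbp4*, a binding protein that restrains IGF-1, fell 11.3-fold with IL-4/IL-13 (624 ± 94.1 to 55.2 ± 1.94 CPM) and a further 3.49-fold in set A. Its mean was 15.8 CPM in set A, 25.4 CPM in set B and 26.6 CPM with Sal003, but 113 CPM with tunicamycin. In the list of PDGF and EGF family ligands, receptors and shedding, 5 of 13 rose and 2 fell with IL-4/IL-13, and 1 rose and 7 fell with tunicamycin. *Errfi1*, a feedback inhibitor of the EGF receptor, rose 2.95-fold with IL-4/IL-13, and *Cd9*, a tetraspanin that associates with HB-EGF, fell 9.25-fold with tunicamycin. Of the other growth factors, *Bmp2* fell 18.3-fold with IL-4/IL-13. *Gdf15*, a secreted stress factor, was 2.61 ± 0.53 CPM with IL-4/IL-13 and 138 ± 7.78 CPM with tunicamycin (53.3-fold), and it rose in all 4 inhibitor conditions, 3.94-fold with Sal003, 16.1-fold in set A and 9.81-fold in set B. *Ccn2* fell 13.8-fold with tunicamycin with a wide error (SE 0.826 on the log2 scale).

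In the list of proteases and inhibitors, 8 of 25 rose and 4 fell with IL-4/IL-13, and 1 rose and 20 fell with tunicamycin. *Plaur*, the urokinase receptor, rose 3.9-fold with IL-4/IL-13. *Adam8* fell 15-fold with tunicamycin and *Mmp9*, a gelatinase, 4.48-fold with Sal003. In set A *Mmp13*, a collagenase, rose 4.56-fold and *Mmp8*, also a collagenase, fell 5.64-fold, and *Mmp8* fell 2.86-fold in set B. Neutrophils also express *Mmp8* and *Mmp9*, and the summed neutrophil markers given above were lower in these conditions than with IL-4/IL-13 as well, a part that was not tested. In the list of matrix, crosslinking and fibronectin receptors, 6 of 33 rose and 15 fell with IL-4/IL-13, and 8 rose and 22 fell with tunicamycin. *Itgb3*, a subunit of an integrin that binds fibronectin, rose 23-fold with IL-4/IL-13 and fell 2.97-fold with Sal003 and 3.05-fold in set A. Its mean was 106 CPM with IL-4/IL-13 and lower in every inhibitor condition, lowest with tunicamycin (6.63 CPM) and at 42.5 CPM in set B. *F13a1*, another transglutaminase, fell 7.42-fold with IL-4/IL-13. *Sdc1*, a heparan sulfate proteoglycan, fell 18-fold with tunicamycin, where *Vcan*, a large matrix proteoglycan, rose 8.73-fold. *Vcan* also rose 3.72-fold in set A. *Spp1*, which encodes osteopontin, rose 2.94-fold with Sal003 and 3.02-fold in set B, and its mean was highest in set A. It was 328 CPM with IL-4/IL-13, 965 CPM with Sal003, 1150 CPM in set A, 991 CPM in set B and 354 CPM with tunicamycin. Of the collagens of this list, *Col1a1*, *Col1a2* and *Col3a1* are also markers of the fibroblast list above.

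**Figure D4:**
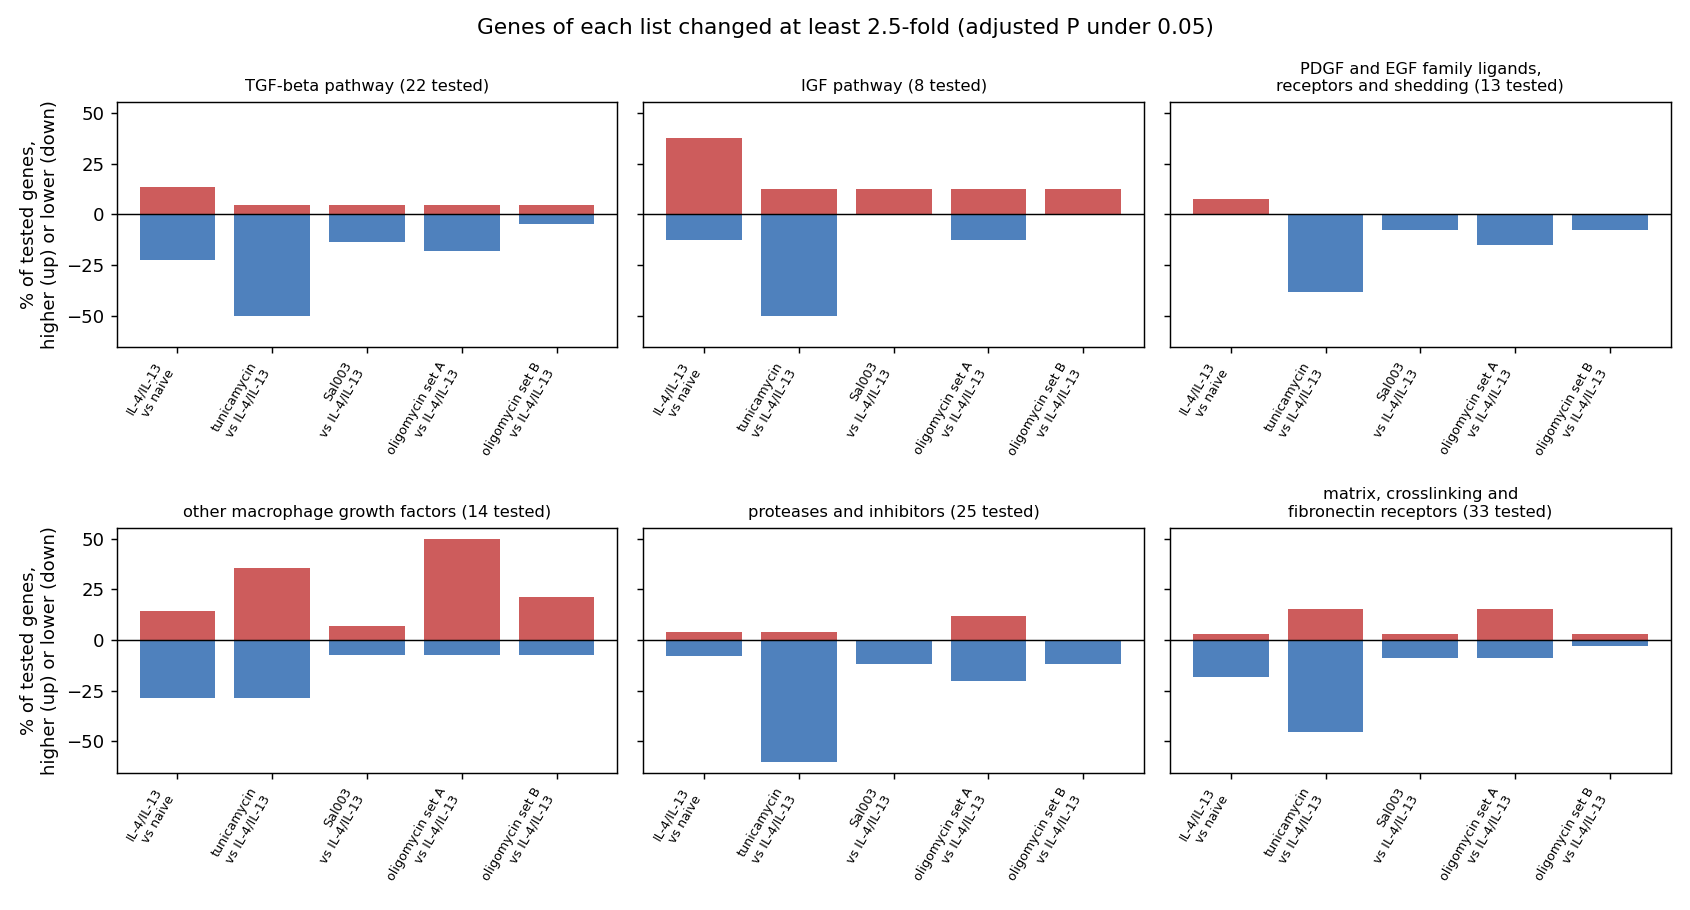
Share of the tested genes of each of 6 pathway lists (panels) called at an adjusted *P* under 0.05 and at least 2.5-fold higher (red, up) or lower (blue, down), in percent, for IL-4/IL-13 against naive BMDM and for each inhibitor against IL-4/IL-13. With tunicamycin the bar down is longer than the bar up in every list but the other macrophage growth factors, where 5 genes were that much higher and 4 lower.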

How the data were processed

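RNA-seq of 24 BMDM libraries (polyadenylated RNA, single reads of 150 bases) was analysed. The authors trimmed reads with Cutadapt 1.8, aligned them to GRCm39 with STAR 2.7 and counted them per gene with HTSeq 0.9.1. The deposited table holds these counts as whole numbers that were not normalized. Rows that name no gene held 12.74% to 15.231% of the reads of a library and were left out. A deposited TPM table made with RSEM 1.2.31 was not used, because its header has more names than its lines have cells. Every column of the count table could be given to a library by its name. The 10 genes and the pathway and marker lists were chosen with earlier results of these data known.

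Counts were fitted with edgeR 4.0.16 in R 4.3.3 (TMM, filterByExpr by condition, a coefficient per condition over all libraries, quasi-likelihood test, Benjamini-Hochberg adjustment over 13679 genes). The median biological coefficient of variation was 7.06%. Alternatives were upper-quartile scaling, DESeq2 1.42.0, no filter, at least 10 counts in every library, the mouse as a block, only the conditions compared, and leaving out each mouse. Log2 CPM used a prior count of 2. Scripts were tested on simulated data. Pathway genes were named by rule, as the largest rise and fall of each list among genes called at 2.5-fold or more with a mean of at least 50 counts, and the nearest genes were the 2 with the highest correlation to each member. The 4 libraries of a condition were distinct beyond counting error (chi-square per gene 2.13 to 34.3). The replicate number marks the mouse and pairs libraries across conditions. Deviations from the condition mean correlated with a median of 0.236 over 60 pairs of the same mouse and -0.05 over 180 pairs of different mice. Promoter windows were read from GRCm39 with the GENCODE M39 annotation, and exon sequence shared with genes on the opposite strand is given in the text because whether reads were counted by strand is not given in the sources used here. A gene that this rule names and a promoter sequence are not reported here.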

Additional observations from a re-analysis of the deposited data

Results flagged for a closer look

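In 4 of the 60 sets of 4 libraries (10 genes in 6 conditions), 1 library lay far from the other 3, with a gap to the nearest above the 95% limit of Dixon's test. They were *Tgfb1* in mouse 4 with Sal003 (543 CPM, 0.856 of the range), *Pdgfa* in mouse 1 of oligomycin set B (20.9 CPM, 0.872), *Hbegf* in mouse 1 with tunicamycin (0.77 CPM, 0.916) and *Mmp14* in mouse 4 of oligomycin set A (5.92 CPM, 0.864). Chance alone gives about 1 such set in 20. For 2 of these genes the same mouse, mouse 4 for *Tgfb1* and mouse 1 for *Pdgfa*, lay above the mean of its condition in 6 of 6 conditions.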

How the results depend on the processing

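The 60 changes of the 10 genes (6 comparisons) kept their direction and their side of the threshold in 55 to 60 of 60 under every alternative that tested all of them, and in 47 of 48 with at least 10 counts in every library. With that strict filter *Pdgfc* and *Hbegf* were not tested, and the genes called with Sal003 against IL-4/IL-13 went from 8 to 5. Between the oligomycin sets the genes changed at least 2.5-fold went from 1 to 0 with upper-quartile scaling, and from 0 to 1 over the fits that left out a mouse, the 0 being without mouse 4. The changes that turned direction were all uncalled and near 0 on the log2 scale. *Hbegf* in set A against IL-4/IL-13 was -0.009315 with DESeq2 and -0.06179 to 0.09887 over the fits without a mouse. *Igf1* in set B was -0.01361 with upper-quartile scaling and -0.0227 to 0.06357 without a mouse. *Tgfb1* in set B was -0.00604 to 0.09043 without a mouse, and *Tgm2* in set A against set B was 0.01345 with upper-quartile scaling and -0.04068 to 0.00957 without a mouse. The cause was not tested. Levels in CPM without TMM scaling moved by up to 1.06 times, over 1 SD in 9 of 60 levels. Paired by mouse (replicate block), *Fn1* in set A against set B became called (log2 change -0.6388, adjusted *P* = 0.0054, edgeR) and so did *Fn1* in set A against naive BMDM, and the block changed no other call of a member. Depth limits *Hbegf* and, with tunicamycin, *Pdgfc*.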
